A study of Mus musculus with 12 samples.

Results

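Matrix metalloproteinases and their tissue inhibitors were followed through the conversion of mouse fibroblasts to pluripotent cells. The genes were taken by symbol from the deposited table of expression values, and all 9 listed symbols were found among its 24098 genes. They comprised 6 proteinase genes (Mmp2, Mmp3, Mmp9, Mmp10, Mmp13 and Mmp14) and 3 inhibitor genes (Timp1, Timp2 and Timp3). Of the 9, 8 reached at least 1 FPKM in at least 1 library, as did 14178 genes in all, and Mmp13 did not. FPKM is the number of sequenced fragments scaled to transcript length and to the mapped fragments of the library, so that levels of different genes can be compared per length.

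Messenger RNA was sequenced in 12 libraries, 1 for each condition. Mouse embryonic fibroblasts (MEFs) carrying a GFP cassette behind the Oct4 gene were grown in serum medium and sampled on day 0 (D0, not infected). The others were infected with pMXs retroviruses for the 4 factors Oct4, Klf4, Sox2 and c-Myc (together OSKM) and kept in a serum-replacement medium with LIF, basic FGF, ascorbic acid and CHIR99021. Cells were collected unsorted on day 3 (D3), sorted by the fibroblast surface protein Thy-1 on days 6 and 9 (D6T-, D6T+, D9T-, D9T+) and by the carbohydrate SSEA-1 on days 12 and 16 (D12S+, D12S-, D16S+, D16S-). The study regards D6T-, D9T-, D12S+ and D16S+ as the successful route and the opposite fractions as the unsuccessful one. Induced pluripotent stem cells (iPSCs) and the mouse embryonic stem cell line ESD3 (mESCs, not infected) were the end points, in the same medium per the labels. The change of medium and the infection came together between D0 and every later day, so their parts in a difference from D0 cannot be told apart.

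Since there were no replicates, no difference below has a replicate error or a test, and counts past a fold describe these libraries. The range given for an FPKM is the interval deposited with it, which comes from the model of the program cuffdiff. Summed over all genes, a library held between 484968 FPKM (D16S+) and 648264 FPKM (D0). Read from the steps of low values, its depth lay between 0.967 (D9T+) and 1.56 (D6T-) of that of D0. The absolute depth is unknown. In these bulk libraries, fewer cells of a type and less RNA per cell cannot be told apart.

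Matrix metalloproteinases (MMPs) are zinc-dependent enzymes that are made as inactive precursors and cut proteins of the extracellular matrix and the cell surface. Tissue inhibitors of metalloproteinases (TIMPs) are small secreted proteins that bind the active site of MMPs. Fibroblasts are a main source of both, and the genes for stromelysins and interstitial collagenases are textbook targets of the AP-1 factors Fos and Jun. Mmp2 and Mmp9 encode the gelatinases, Mmp3 and Mmp10 the stromelysins, Mmp13 a collagenase, and Mmp14 a membrane-bound enzyme that, together with Timp2, activates the precursor of Mmp2.

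On the mm9 build, as annotated in GENCODE M1, Mmp13 (7272514 to 7283333), Mmp3 (7445822 to 7455972) and Mmp10 (7502352 to 7510238) lie on the plus strand of chromosome 9, in a cluster of 10 Mmp genes between 7272514 and 7699585. Mmp2 lies on chromosome 8 (95351227 to 95377316, plus strand), Mmp9 on chromosome 2 (164766280 to 164781350, plus strand) and Mmp14 on chromosome 14 (55050441 to 55060095, plus strand). Timp2 lies on chromosome 11 (118162383 to 118217054, minus strand). Timp1 (chromosome X, 20447292 to 20451861, plus strand) lies inside the opposite-strand gene Syn1, and Timp3 (chromosome 10, 85763117 to 85812251, plus strand) inside Syn3, also on the opposite strand. The table gives each pair 1 common locus. The host genes were low, with Syn1 at most 4.70 FPKM in D0 and Syn3 at most 0.378 FPKM in D9T-, and their reads were not separated here.

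Promoter sequences were available for 7 of the 9 genes (RefSeq, GRCm38.p6), and the 250 bases before the annotated start were searched on both strands. The promoters of Mmp3, Mmp10 and Mmp13 each held a TATAAA box and the AP-1 motif, which reads TGACTCA on one strand and therefore has the letters TGAGTCA on the other. Among all 32851 promoters of that table, 4.46% held the AP-1 motif, 12.4% the TATAAA box on either strand and 0.721% both. None of the other 4 promoters matched, Mmp14, Timp1, Timp2 and Timp3, held either motif. Each of these 4 held the GC box GGGCGG (or CCGCCC), present in 32.7% of all promoters and absent from the 3 on chromosome 9. A match is a description of these letters and shows no binding. The 3 promoters of the chromosome 9 cluster are printed 5′ to 3′ because they share both motifs, with that of Timp3, the gene that differed in direction, for contrast. Capitals mark the AP-1 motif and the TATAAA box in the first 3 and the GC box in the last.
Mmp3, chr9:7445572-7445821, plus strand: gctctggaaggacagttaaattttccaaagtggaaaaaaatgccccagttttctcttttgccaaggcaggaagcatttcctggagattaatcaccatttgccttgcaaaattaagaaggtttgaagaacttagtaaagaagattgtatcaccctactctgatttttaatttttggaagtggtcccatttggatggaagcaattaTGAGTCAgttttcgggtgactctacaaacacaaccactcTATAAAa
Mmp10, chr9:7502092-7502341, plus strand: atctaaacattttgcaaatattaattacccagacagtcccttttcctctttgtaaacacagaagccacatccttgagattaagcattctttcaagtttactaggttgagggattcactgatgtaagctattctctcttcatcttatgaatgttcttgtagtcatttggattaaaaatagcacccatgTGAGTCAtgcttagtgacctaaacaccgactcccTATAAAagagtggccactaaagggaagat
Mmp13, chr9:7272264-7272513, plus strand: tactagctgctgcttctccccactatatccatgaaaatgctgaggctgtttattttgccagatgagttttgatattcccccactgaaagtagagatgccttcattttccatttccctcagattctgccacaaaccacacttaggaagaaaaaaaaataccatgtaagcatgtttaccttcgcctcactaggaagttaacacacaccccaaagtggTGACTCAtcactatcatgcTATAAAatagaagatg
Timp3, chr10:86300162-86300411, plus strand: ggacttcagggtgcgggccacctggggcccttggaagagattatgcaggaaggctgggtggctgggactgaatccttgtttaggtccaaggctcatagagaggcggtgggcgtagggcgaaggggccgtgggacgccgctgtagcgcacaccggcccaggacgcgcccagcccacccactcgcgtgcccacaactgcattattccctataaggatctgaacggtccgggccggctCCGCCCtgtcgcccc

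The AP-1 motif began 46 bases before the start in Mmp3, 63 in Mmp10 and 35 in Mmp13. The TATAAA box began 7 bases before it in Mmp3, 29 in Mmp10 and 16 in Mmp13. These distances are counted from the annotated starts, whose accuracy was not tested.

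The starting fibroblasts had the highest level of 8 of the 9 genes, whereas 17.5% of all genes with any signal were highest in D0. Timp1 was the highest of the 9 in all 12 libraries. In D0 it was at 1596 FPKM, followed by Mmp14 at 777, Mmp2 at 688, Mmp3 at 624 and Timp2 at 453 FPKM. These 5 genes ranked between 54 and 219 among the 14178 kept genes of D0. Mmp10 was at 95.4, Mmp9 at 33.7, Timp3 at 12.4 and Mmp13 at 0.617 FPKM.

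**Figure D1:**
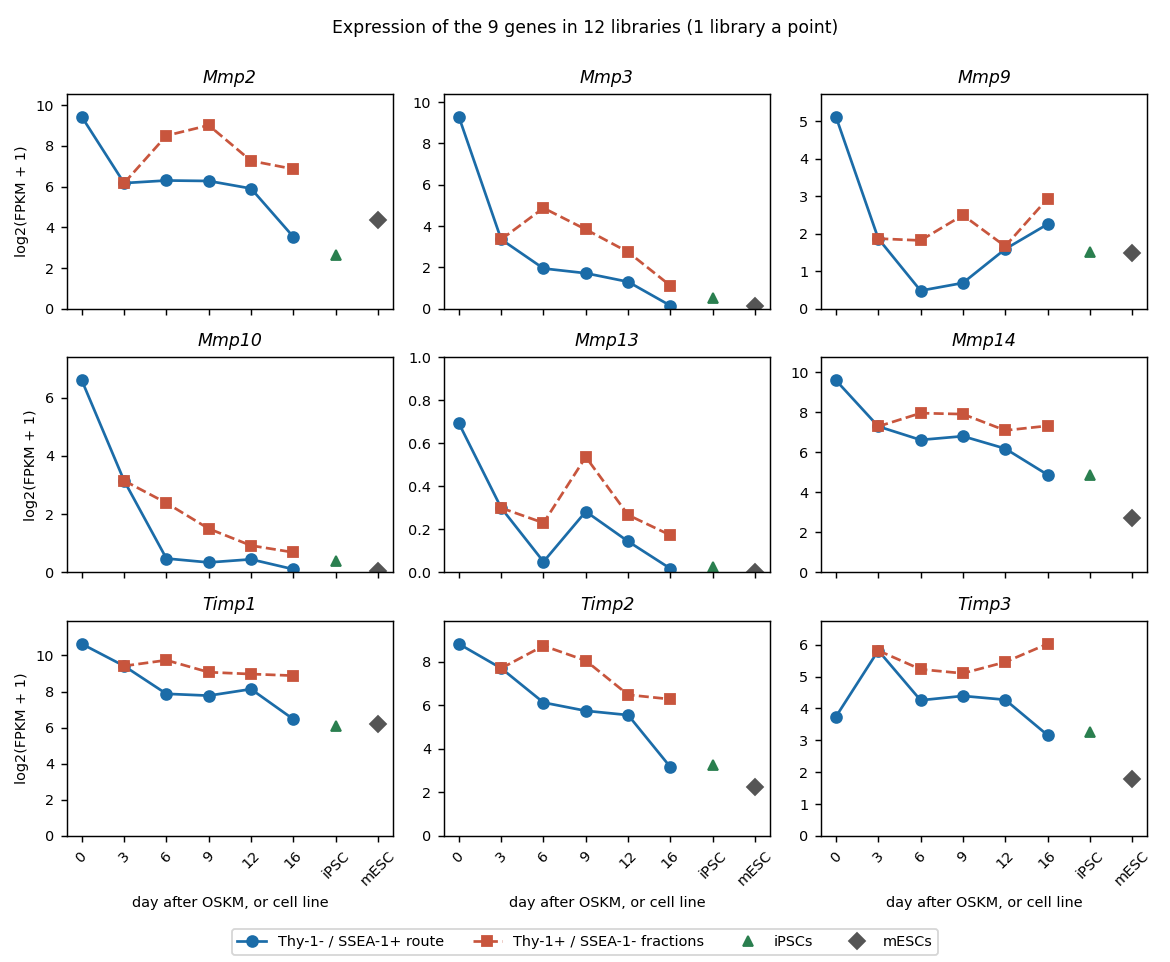
Level of each of the 9 genes on the log2(FPKM + 1) scale against the day after OSKM induction, with iPSCs and mESCs at the right and 1 library a point. D0, D3 and the Thy-1- and SSEA-1+ fractions are blue circles, the Thy-1+ and SSEA-1- fractions red squares, and both lines share the unsorted D3 library. Timp3 rises from D0 to D3 while the other 8 fall, and the red squares lie above the blue circles on each sorted day.

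To see how early the genes changed, D3 was compared with D0. All 6 proteinase genes were lower in D3, as were Timp1 and Timp2, while Timp3 was higher. On the log2(FPKM + 1) scale, on which fold changes of low genes are understated, 7 of the 8 kept genes were at least 2-fold lower, against 8.67% of all kept genes, and 1 was at least 2-fold higher, against 5.76%. The median difference was -2.78 over the 8 genes and -0.02 over all kept genes. With libraries scaled to the same total FPKM, 5 of the 8 were 2-fold lower, since Timp1 (-0.95) and Timp2 (-0.85) then stayed within 2-fold.

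Mmp3, a broad-range enzyme that also activates other MMPs, was at 624 FPKM in D0 and 9.25 FPKM in D3. This 67.5-fold drop (-5.93 on the log2 scale) was the second largest fall (position 2) of the 14178 genes. Mmp10, the other stromelysin, went from 95.4 to 7.85 FPKM, which was 12.1-fold lower. Both genes were low on the successful route from day 6 onwards. Mmp3 was at 2.87 FPKM in D6T-, 2.30 in D9T-, 1.47 in D12S+ and 0.110 in D16S+. Mmp10 was at 0.389 FPKM in D6T-, 0.266 in D9T-, 0.363 in D12S+ and 0.0766 in D16S+. The end points were as low, with Mmp3 at 0.458 FPKM in iPSCs and 0.0810 in mESCs and Mmp10 at 0.318 and 0.0281 FPKM. Mmp10 was the gene whose deposited intervals separated most often, in 8 of 66 pairs of libraries, each with D0. Its interval was 4.69 to 186 FPKM in D0 and 0 to 1.11 FPKM in iPSCs, whereas that of Mmp3 in D0 reached from 0 to 1304 FPKM and overlapped all others.

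The gelatinase gene Mmp2 went from 688 to 71.2 FPKM between D0 and D3, a 9.67-fold drop. It then stayed near that level in D6T- (77.9 FPKM), D9T- (76.6 FPKM) and D12S+ (59.0 FPKM) before a second step to 10.6 FPKM in D16S+ and 5.18 FPKM in iPSCs. The mESCs were higher, at 19.4 FPKM. Mmp14 had a smaller first step, and unlike Mmp2 it differed little between D16S+ and iPSCs and was lower in mESCs than in iPSCs. Its values were 777 FPKM in D0, 156 in D3, 97.7 in D6T-, 111 in D9T-, 72.0 in D12S+, 28.5 in D16S+, 27.9 in iPSCs and 5.47 in mESCs. Both genes were therefore lower by day 3, and lower again between D12S+ and D16S+, by 2.37 (Mmp2) and 1.31 (Mmp14) on the log2 scale.

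Mmp9, the other gelatinase, did not follow Mmp2. It was at 33.7 FPKM in D0, 2.66 in D3 and 0.397 in D6T-, its lowest value. The later libraries of the successful route were higher, with 0.611 FPKM in D9T-, 2.01 in D12S+ and 3.77 in D16S+, before 1.87 FPKM in iPSCs and 1.81 in mESCs. Its deposited intervals lay apart in 2 of 66 pairs, D0 against D6T- and against D9T-. Those of the later steps overlapped. Mmp9 is also made by macrophages and granulocytes, so their markers were examined. Of 8 leukocyte and macrophage markers 6 were kept, and the summed level of all 8 came to 33.7 FPKM in D0, 15.6 in D6T-, 70.8 in D16S+ and 146 in D16S-. In D16S- most of the sum was Cd68, at 115 FPKM (9.05 FPKM in D0), and Csf1r was at 19.9 FPKM (1.55 FPKM in D0). Lyz2 and Tyrobp were highest in D0 and lower in D3, as Mmp9 was. Lyz2 was at 9.47 FPKM in D0, 0.475 in D3 and 0.162 in D6T-, and Tyrobp at 3.38, 0.149 and 0.0715 FPKM. Cd14 was at 9.79 FPKM in D0 and 3.98 FPKM in D3, and Itgam at most 1.68 FPKM. The pan-leukocyte gene Ptprc stayed at or below 0.425 FPKM in all 12 libraries, and the macrophage gene Emr1 was at 0.192 FPKM in D0 and listed at 0 in D3, D6T- and D16S+. Of the 6 mast cell and granulocyte markers, Mcpt8 was at 1201 FPKM in D0 and 21.5 FPKM in D3, and Kit was at 0.0364 FPKM in D0. Mpo, Elane and S100a8 were at most 0.0384, 0.0600 and 0.789 FPKM, and Cpa3 was listed at 0 in all 12 libraries. The part of these cells in the level of Mmp9 was not tested.

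Mmp13, a collagenase of cartilage and bone, was under 1 FPKM throughout. It was at 0.617 FPKM in D0, 0.231 in D3, 0.451 in D9T+ and between 0.0120 and 0.217 in the 8 other libraries with a value above 0, and was listed at 0 in mESCs. It is in no count of genes past 2-fold. Of 6 cartilage and bone markers 4 were kept. Runx2 was at 10.97 FPKM and Sox9 at 3.67 FPKM in D0, each its highest value, while Acan and Col2a1 reached 4.86 and 4.40 FPKM in mESCs. The bone markers Bglap and Ibsp were at most 0.159 and 0.0488 FPKM. Their part in the level of Mmp13 was not tested.

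By day 3, Timp1 and Timp2 had dropped less than the 5 kept proteinase genes. Timp1, which inhibits most secreted MMPs, was at 1596 FPKM in D0 and 683 FPKM in D3, a 2.34-fold difference. On the successful route it was at 234 FPKM in D6T-, 218 in D9T-, 279.95 in D12S+, 87.5 in D16S+ and 66.1 in iPSCs, and mESCs had 72.5 FPKM. Timp2 was at 453 FPKM in D0, 208 in D3, 69.1 in D6T-, 52.9 in D9T-, 46.0 in D12S+, 7.95 in D16S+, 8.71 in iPSCs and 3.797 in mESCs. Timp1 thus kept 42.8% of its D0 level in D3 and Timp2 45.9%, against 20.1% for Mmp14, 10.3% for Mmp2 and 1.48% for Mmp3.

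Timp3, the inhibitor that stays bound to the matrix, went the other way at first. Its level was 12.4 FPKM in D0 and 55.3 FPKM in D3, 2.07 higher on the log2 scale, which placed it at position 198 among the rises. On the successful route it then declined to 18.1 FPKM in D6T-, 19.97 in D9T-, 18.3 in D12S+ and 7.95 in D16S+. The end points had 8.48 FPKM (iPSCs) and 2.44 FPKM (mESCs).

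**Figure D2:**
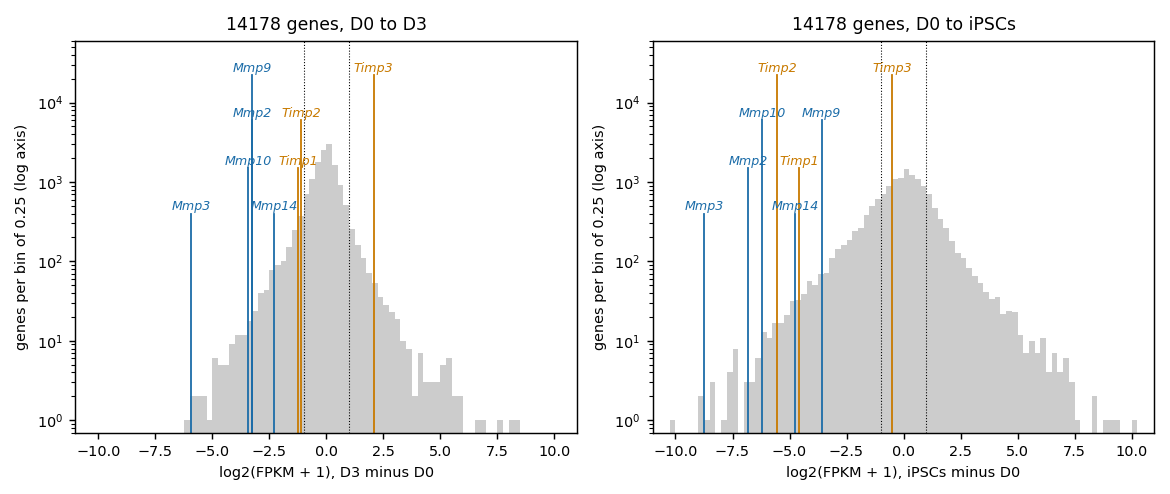
Distribution of the difference in log2(FPKM + 1) from D0 to D3 (left) and from D0 to iPSCs (right) over 14178 kept genes, as genes per bin on a log axis, with the 8 kept members as lines (Mmp blue, Timp orange) whose height carries no value. Dotted lines mark 2-fold. Mmp3 lies at -5.93 on the left and -8.74 on the right, near the lower end of both distributions, and Timp3 is right of the upper dotted line on the left only.

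Next, D0 was compared with the end of the successful route. This comparison, like those with D3 and D16S-, rests on the same D0 library. In iPSCs 7 of the 8 kept genes were at least 2-fold lower than in D0, against 21.6% of all kept genes, and none was 2-fold higher, against 18.7%. The exception was Timp3, at 12.4 and 8.48 FPKM, a difference of -0.50 on the log2 scale. The median difference was -5.15 over the 8 genes and 0.03 over all kept genes. Mmp3 was again among the largest falls (position 4, -8.74 on the log2 scale), followed by Mmp2 (-6.80), Mmp10 (-6.19), Timp2 (-5.55), Mmp14 (-4.75), Timp1 (-4.57) and Mmp9 (-3.60). Mmp10 was the only one of the 8 whose deposited intervals in D0 and iPSCs did not overlap. Over all kept genes, the interval in iPSCs lay wholly below that in D0 for 0.522% and wholly above it for 0.466%.

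The unsuccessful route was examined to see which of the genes kept their level in cells that retained Thy-1 or lacked SSEA-1. D6T+ was first set against the unsorted D3 cells, a comparison added after the values were seen. Mmp2 was at 71.2 FPKM in D3 and 362 FPKM in D6T+, Mmp3 at 9.25 and 28.4 FPKM, and Timp2 at 208 and 427 FPKM. These were the 3 of 8 genes at least 2-fold higher in D6T+, against 5.16% of all kept genes, and 0 were 2-fold lower, against 1.79%. Mmp9 (2.66 and 2.53 FPKM), Mmp10 (7.85 and 4.21 FPKM) and Timp3 (55.3 and 36.4 FPKM) had lower values in D6T+. Timp2 then stood at 94.2% of its D0 level and Mmp2 at 52.6%, but Mmp3 at 4.54% and Mmp10 at 4.41%. D3 was not sorted, so it differed from D6T+ in sorting as well as in day, and its composition was not measured.

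Mmp2 reached its highest level after D0 in D9T+, at 516 FPKM, and was at 153 FPKM in D12S- and 116 FPKM in D16S-. Mmp14 stayed between 136 and 248 FPKM in these 4 fractions. Timp1 was at 853 FPKM in D6T+, 537 in D9T+, 500.3 in D12S- and 471 in D16S-. Timp2 was at 266 FPKM in D9T+, 88.7 in D12S- and 77.0 in D16S-. The stromelysins had lower values in each later of these 4 fractions. The sorting antigen changed between D9T+ and D12S-, so these libraries do not follow a single population. Mmp3 was at 13.3 FPKM in D9T+, 5.70 in D12S- and 1.17 in D16S-, and Mmp10 at 4.21 in D6T+, 1.83 in D9T+, 0.891 in D12S- and 0.609 in D16S-. Timp3 was at 36.4 FPKM in D6T+, 33.3 in D9T+, 42.8 in D12S- and 64.1 in D16S-, its highest value in any library. Mmp9 was at 2.53 FPKM in D6T+, 4.64 in D9T+, 2.17 in D12S- and 6.64 in D16S-.

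D16S- cells thus did not return to the D0 pattern. Compared with D0, 7 of the 8 genes were at least 2-fold lower in D16S-, against 11.4% of all kept genes, and Timp3 was at least 2-fold higher, against 12.8%. Mmp3 was 534-fold lower and Mmp10 157-fold lower, whereas Mmp2, Mmp9, Mmp14, Timp1 and Timp2 were between 3.39-fold and 5.96-fold lower.

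The fractions of each day were then compared with each other. All 9 genes had less transcript in Thy-1- than in Thy-1+ cells on days 6 and 9. The same held for SSEA-1+ against SSEA-1- cells on days 12 and 16, with the size depending on gene and day. Mmp13 was under 1 FPKM throughout, and Mmp9 was close in both fractions of day 12 (2.01 and 2.17 FPKM). Over the 8 kept genes the median log2 difference was -1.89, -1.55, -0.92 and -2.43 on days 6, 9, 12 and 16. Over all kept genes it was 0.005, 0.016, -0.012 and -0.021. The share of all genes lower by any amount was not counted. On day 6, 7 of the 8 kept genes were at least 2-fold lower in D6T- than in D6T+ (9.47% of all kept genes) and 0 higher (2.93%). On day 9 it was again 7 of 8 lower (6.45%) and 0 higher (1.81%), and in both cases the remaining gene was Timp3. On day 6 Timp3 was just short of the threshold (-0.97 on the log2 scale, 2.01-fold in FPKM). On day 12 the 3 genes 2-fold lower in D12S+ were Mmp2, Mmp3 and Timp3 (3.03%), and 0 were higher (4.79%). On day 16 the 5 lower genes were Mmp2, Mmp14 and the 3 inhibitors (15.2%), and 0 were higher (11.8%). Because days 6 and 9 were sorted on one antigen and days 12 and 16 on another, a change of these differences between day 9 and day 12 cannot be told apart from the change of antigen.

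In FPKM, the Thy-1 sort separated Mmp3 and Mmp10 most on day 6, by 9.90-fold and 10.8-fold, with Mmp10 at 0.389 FPKM in D6T-. On the log2(FPKM + 1) scale Mmp3 (-2.93) was followed by Timp2 (-2.61), Mmp2 (-2.20) and Mmp10 (-1.91). By day 16 Mmp3 and Mmp10 were at or below 1.17 FPKM in either fraction, so their large ratios there rest on low values. The day 16 sort separated Mmp2 by 10.9-fold (10.6 and 116 FPKM), Timp2 by 9.68-fold (7.95 and 77.0 FPKM) and Timp3 by 8.05-fold (7.95 and 64.1 FPKM). For Timp3 the difference was larger on day 16 (-2.86 on the log2 scale) than on days 6, 9 and 12 (-0.97, -0.71 and -1.18). For Mmp9 the differences on days 6 and 9 were the larger ones, with -1.34 on day 6 and -1.81 on day 9 but -0.08 on day 12 and -0.68 on day 16. These differences between days were not tested. The deposited intervals of all 9 genes overlapped in each of the 4 pairs. Such overlap is usual in these data. Between D0 and iPSCs the interval in iPSCs lay wholly below for 0.522% of all kept genes and wholly above for 0.466%. That share was not computed for the 4 pairs.

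**Figure D3:**
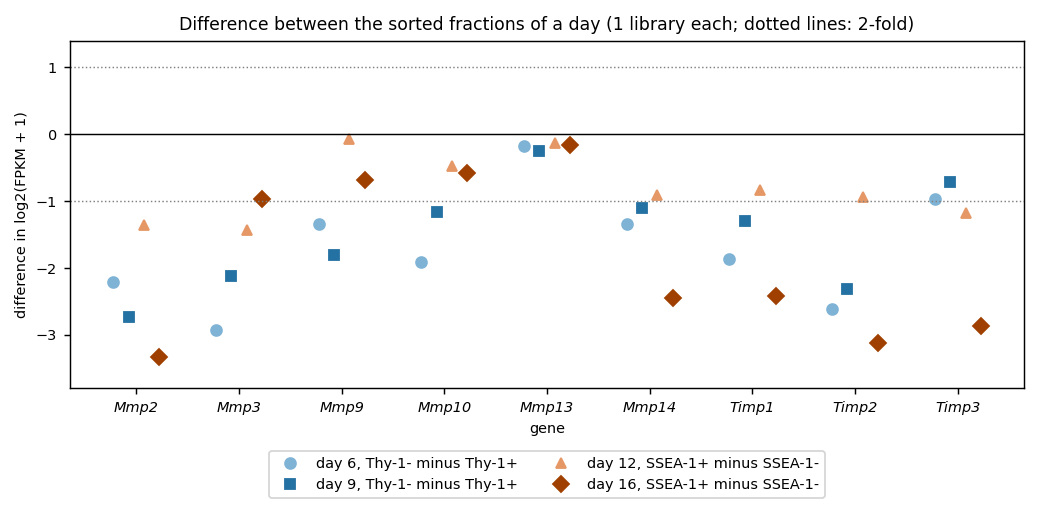
Difference in log2(FPKM + 1) between the sorted fractions of days 6, 9, 12 and 16 for each of the 9 genes, Thy-1- minus Thy-1+ or SSEA-1+ minus SSEA-1-, 1 library each. The points lie below 0, with Mmp13 and the day 12 value of Mmp9 (-0.08) close to it. Timp3 is lowest on day 16 at -2.86 and Mmp2 at -3.33.

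Fibroblast markers moved with the fractions. All 9 markers were kept, and their summed level was 6603 FPKM in D0, 1704 in D3, 2332 in D6T+ against 256 in D6T-, 2023 in D9T+ against 215 in D9T-, 628 in D12S- against 229 in D12S+, and 445 in D16S- against 33.9 in D16S+. In D0 most of the sum was Col1a1 (3453 FPKM) and Col1a2 (1738 FPKM). From D3 to D6T+, 5 of the 9 markers were at least 2-fold higher (5.16% of all kept genes) and 1 lower (1.79%). Thy1 itself, which encodes the sorting antigen of days 6 and 9 and is part of the sum, had 477 FPKM in D6T+ against 3.24 in D6T-. The 6 pluripotency markers summed to 2.11 FPKM in D0, 4674 in D16S+ and 129.98 in D16S-. Most of the D16S+ sum was Dppa5a, at 3582 FPKM. Timp3 did not share the course of the fibroblast sum, since it was lower in D0 (12.4 FPKM) than in D3, D6T+ and D9T+ (33.3 to 55.3 FPKM). The part of cell composition in the values of the 9 genes was not tested.

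To describe the balance of enzymes and inhibitors at the transcript level, the FPKM of the 6 proteinase genes and of the 3 inhibitor genes were summed. The 2 sums were near each other in D0, at 2219 and 2061 FPKM, a ratio of 1.08. In D3 the proteinase sum was at 248 FPKM and the inhibitor sum at 946 FPKM, a ratio of 0.262, the lowest of the 12 libraries. The proteinases had gone to 11.2% of their D0 sum by then and the inhibitors to 45.9%. The ratio was 0.559 in D6T-, 0.657 in D9T-, 0.392 in D12S+, 0.416 in D16S+, 0.430 in iPSCs and 0.340 in mESCs. In the opposite fractions it was 0.490 in D6T+, 0.928 in D9T+, 0.472 in D12S- and 0.464 in D16S-. After D0, the ratio was highest in D9T+, where Mmp2 alone made up 516 of the proteinase sum of 776 FPKM.

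The make-up of the proteinase sum also changed. Mmp3 accounted for 28.1% of it in D0, 3.74% in D3 and at most 4.39% in the later libraries, while Mmp2 and Mmp14 together went from 66.02% in D0 to 91.9% in D3 and between 90.8% and 98.2% later. Timp1 held between 64.2% (D9T+) and 92.1% (mESCs) of the inhibitor sum. The share of Timp3 went from 0.601% in D0 to 10.5% in D16S-. The ratio rests on the highest genes. Without the highest member of each sum it was 3.10 in D0 and 0.346 in D3, still the highest and the lowest, but in D9T+ it was 0.871, below the 1.18 of mESCs, the 1.104 of D12S- and the 1.098 of D9T- among others, and 8 of the 12 ratios moved by over 1.5 times.

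**Figure D4:**
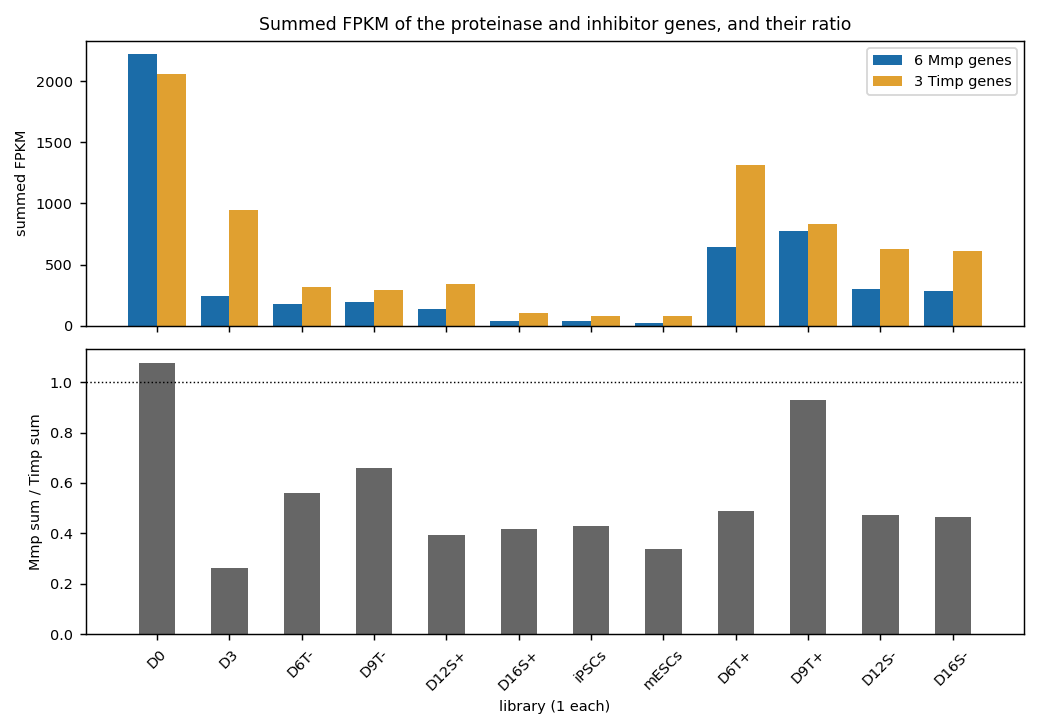
Summed FPKM of the 6 Mmp and the 3 Timp genes in each of 12 libraries (top, bars from 0) and the ratio of the sums (bottom, dotted line at 1). The proteinase sum exceeds the inhibitor sum in D0 only (1.08), and the ratio is lowest in D3 (0.262).

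The pluripotent end points were compared with each other last. The iPSCs had 27.9 FPKM of Mmp14 and the mESCs 5.47, with 8.48 and 2.44 FPKM of Timp3 and 8.71 and 3.797 FPKM of Timp2. These were the 3 of 8 genes at least 2-fold higher in iPSCs (6.79% of all kept genes). Mmp2 was the 1 gene lower in iPSCs (7.41%), at 5.18 against 19.4 FPKM, so that Mmp2 exceeded Mmp14 in mESCs and Mmp14 exceeded Mmp2 in iPSCs. Timp1 (66.1 and 72.5 FPKM) and Mmp9 (1.87 and 1.81 FPKM) were close, and Mmp3, Mmp10 and Mmp13 were under 0.5 FPKM in both. Over the 8 genes the median difference was 0.39, against -0.01 over all kept genes.

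The other genes of pericellular proteolysis did not all follow the members. Of 17 other Mmp genes 9 were kept. In iPSCs 4 of the 9 were at least 2-fold lower than in D0 (21.6% of all kept genes) and 0 higher (18.7%), and in D16S- 4 were lower (11.4%) and 3 higher (12.8%). Mmp7 and Mmp12 were among the lower genes in both cases. They reached 1 FPKM in D0 only, so that they were lower elsewhere followed from the filter. Mmp23 was at 98.9 FPKM in D0, 14.8 in D3, 44.6 in D6T+ and 4.67 in D6T-. Mmp19 was at 39.7 FPKM in D0, 2.89 in D3, 26.9 in D6T+ and 3.11 in D6T-, thus higher in D6T+ than in D3, as was Mmp2. Mmp11, also called stromelysin-3 but not a member of the chromosome 9 cluster, was at 17.8 FPKM in D0 and 12.0 FPKM in iPSCs and highest in D16S- (41.7 FPKM). Mmp17, a membrane-anchored enzyme, was highest in mESCs (16.8 FPKM), with 2.04 FPKM in D0 and 4.05 in iPSCs, within 2-fold of each other. It was at 4.85 FPKM in D12S+, 7.62 in D16S+ and 3.55 in D16S-.

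Of the 10 genes in the cluster on chromosome 9, 9 were highest in D0 (17.5% of all genes with any signal), as were the members Mmp2, Mmp9, Mmp14, Timp1 and Timp2 on other chromosomes, and Mmp20, a tooth enamel enzyme, was listed at 0 in all 12 libraries. Mmp12 was at 2.37 FPKM in D0 and 0.0532 FPKM in D3, and Mmp7 at 1.15 and 0.0424 FPKM. Mmp1a, Mmp1b, Mmp8 and Mmp27 were at or below 0.588 FPKM in D0, where few fragments stand behind a value. Mmp1a and Mmp1b are related copies, and reads with several loci had been removed, so their values are uncertain. The table gives Mmp7 and Mmp20 a common locus.

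The plasminogen activator system, which can activate MMP precursors, was represented by 7 genes, of which 5 were kept. Plau, which encodes urokinase, was at 519 FPKM in D0, 101 in D3, 6.61 in D6T- and 55.2 in D6T+, and Plat, the tissue-type activator, at 242, 26.1, 8.50 and 94.2 FPKM. Serpine2, which encodes a secreted serine proteinase inhibitor, was less changed early, with 105 FPKM in D0, 74.0 in D3, 73.5 in D6T- and 127 in D6T+. The urokinase receptor gene Plaur was at 102 FPKM in D0, 101 in iPSCs and 188 in D16S-. From D0 to D3, 2 of the 5 were at least 2-fold lower (8.67% of all kept genes) and 0 higher (5.76%). From D0 to iPSCs 4 were lower (21.6%) and 0 higher (18.7%). In D6T- 3 of the 5 were lower than in D6T+ (9.47%) and 0 higher (2.93%).

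Of 19 Adamts genes, which encode secreted relatives of the MMPs, 13 were kept, and between D0 and iPSCs 9 of these were lower by at least 2-fold (21.6% of all kept genes) and 0 higher (18.7%). Adamts14, a procollagen-processing enzyme, was at 131 FPKM in D0 and 3.74 FPKM in iPSCs, and Adamts2, of the same function, at 23.8 and 0.156 FPKM. Adamts7 went from 32.4 to 2.52 FPKM. Adamts1 was instead highest in D9T+ (55.9 FPKM, against 20.1 FPKM in D0). Among 6 other inhibitors and cofactors 5 were kept, with 3 lower (21.6%) and 0 higher (18.7%) in iPSCs. The receptor Lrp1, which clears MMPs and TIMPs from the cell surface, was at 388 FPKM in D0 and 9.08 FPKM in iPSCs, and Furin, which cuts the precursor of Mmp14, at 147 and 20.4 FPKM. Bsg, an inducer of MMPs, was at 811 and 449.96 FPKM, within 2-fold. The general proteinase inhibitor A2m was at 0.526 FPKM in D0, 1.41 in iPSCs and 16.6 in mESCs.

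**Figure D5:**
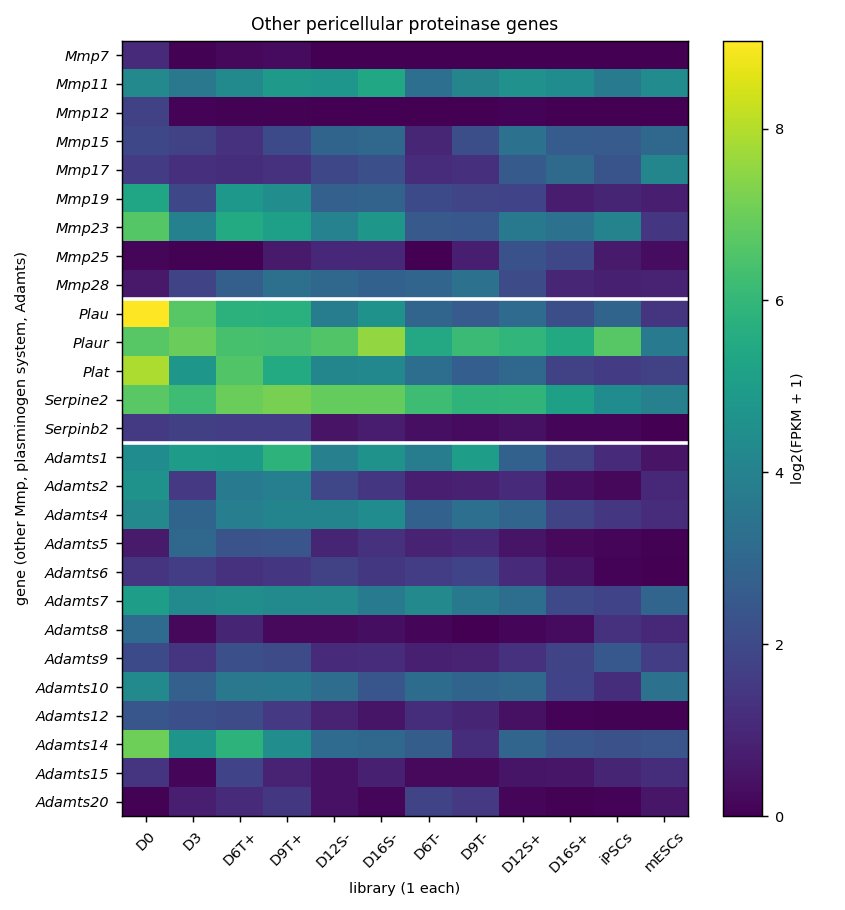
Level of the kept other Mmp genes (top block), plasminogen system genes (middle) and Adamts genes (bottom) in 12 libraries on the log2(FPKM + 1) colour scale, 1 library each. Plau is brightest in D0 (519 FPKM), while Mmp11 stays within 8.80 to 41.7 FPKM.

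Finally, the genes whose course over the 12 libraries was most like that of each member were listed, as a description, among 8796 other genes with at least 10 FPKM in some library. The libraries share their cells of origin, and D0 weighs heavily in these values. Timp1 was nearest to Ehbp1l1 (Pearson r = 0.991), Evi5l (0.991) and Plod3 (0.987), the last a collagen-modifying enzyme. Timp2 was nearest to Ctsk (0.988), a collagen-degrading lysosomal proteinase, and to Nnmt (0.987) and Efemp2 (0.986). Mmp2 was nearest to Rasa3 (0.977), Lrp1 (0.976) and Tpbg (0.976), and Mmp14 to Csnk1d (0.986), Bace1 (0.982) and Clec16a (0.982). Mmp3 was nearest to Frzb (0.973), Dnajc10 (0.973) and Gzme (0.971), and Mmp10 to Tfpi2 (0.991), Evi2a (0.979) and Cnpy4 (0.977). Timp3 was nearest to Lgals3 (0.970), Lxn (0.964) and Tmbim1 (0.961). Mmp9 and Mmp13 had weaker neighbours, Pmepa1 (0.931), Fhod1 (0.927) and Vasp (0.924) for the former and Tmem119 (0.941), Ndufa2 (0.927) and Tnnt2 (0.926) for the latter.

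Without D0, the first neighbours of Mmp2, Timp1 and Timp2 stayed first, with r of 0.987, 0.990 and 0.991. Those of the others did not: Tfpi2 moved to position 3 for Mmp10, Lgals3 to 4 for Timp3, Pmepa1 to 9 for Mmp9, Csnk1d to 10 for Mmp14, Tmem119 to 12 for Mmp13 and Frzb to 18 for Mmp3. The r of Pmepa1 with Mmp9 was then 0.802. Among the members themselves, Timp1 and Timp2 were the most alike (r = 0.963 over 12 libraries), followed by Mmp14 and Timp2 (0.949) and by Mmp3 and Mmp10 (0.947). The 2 gelatinases had an r of 0.478, and Timp3 was least like Mmp9 (0.0605) and Mmp10 (0.188).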

How the data were processed

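RNA of 12 libraries was measured, 1 per condition, and the sample titles gave the groups. A column was matched to its sample through the day and through "pos" or "neg" in its name. The authors mapped reads to mm9 with STAR, removed reads with more than 2 mismatches or more than 1 locus, and deposited cuffdiff FPKM with an interval for each. Versions, annotation and library scaling are not given in the sources used here. The labels name a stranded TruSeq kit and the methods a TruSeq kit without that word, and whether counting used strand is not given, which bears on Timp1 and Timp3. The status columns (12) were not used.

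Differences were computed as log2(FPKM + 1) with Python 3.11.15, numpy 2.4.6 and pandas 2.3.3. Genes with at least 1 FPKM in at least 1 library were kept, and 2-fold was the threshold. No test was run, since each condition had 1 library. A fit over the 4 days with both fractions was not run either, as 2 antigens were used. An FPKM of exactly 0 is given as listed at 0. The functions were tested on simulated data. The members and lists (other Mmp genes, other inhibitors and cofactors, plasminogen activator system, Adamts genes, cathepsins, inducers and 8 marker lists) were chosen with earlier results of these data known, and 1 gene of the plasminogen list is not reported here. Up to 4 genes per list with the highest FPKM are named, plus those that stand beside a member's result. Nearest genes are the 3 with the highest Pearson r. The alternatives were a pseudocount of 0.1, scaling to the same total or by the median of ratios, a 4-fold threshold and no filter.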

Additional observations from a re-analysis of the deposited data

How the results depend on the processing

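No replicates can be paired, as each condition had 1 library. All 18 counts of members past 2-fold stayed within 1.5 times when scaled to the same total or by the median of ratios. The same held without the filter. Under the scalings, some calls within the counts ended or were added. By the median of ratios, and with a pseudocount of 0.1, the members lower in D6T- than in D6T+ were 8 (with Timp3). Scaled to the same total, the members lower in D3 than in D0 were 5 (without Timp1 and Timp2) and those lower in D9T- 6 (without Mmp14), and by the median of ratios those higher in iPSCs than in mESCs were 2 (without Timp2). Of all 9 genes' differences, 81 of 81 moved by at most 0.5 under either scaling. Scaling to the same total moved the median of all kept genes between D0 and iPSCs from 0.03 to 0.18. At 4-fold, the members lower in D6T- and in D9T- were 3 each, those lower in D12S+ 0, those higher in iPSCs than in mESCs 1 and lower 0, and those higher in D6T+ than in D3 1, and a higher threshold can by construction only lower a count. With a pseudocount of 0.1, 5 members were higher in iPSCs than in mESCs, Mmp3 and Mmp10 being added at levels under 0.5 FPKM. The members lower in D16S+ than in D16S- were then 7 (with Mmp3 and Mmp10) and those lower in D12S+ than in D12S- 4 (with Mmp10). With this pseudocount 20 of 81 single differences moved and 0 reversed. Depth limits the low genes most (Mmp3, Mmp9, Mmp10 and Mmp13 after day 3).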

Other observations

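Cathepsins, proteinases of the lysosome, were measured beside the secreted enzymes. All 11 were kept, and between D0 and iPSCs 8 were lower by at least 2-fold (21.6% of all kept genes) and 0 higher (18.7%). Ctsl was at 2379 FPKM in D0, 510 in D3, 1291 in D6T+, 203 in D6T- and 113 in iPSCs, and Ctsb at 714, 204, 478, 111 and 65.7 FPKM. Ctsk was at 247 FPKM in D0, 57.7 in D3 and 0.616 in iPSCs. Ctsd was less changed early, with 1158 FPKM in D0, 1325 in D3 and 327 in iPSCs. Ctsz went from 446 to 98.8 FPKM.

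Of 13 cytokine, AP-1 and Ets genes 10 were kept. Between D0 and D3, 0 of the 10 were 2-fold lower (8.67% of all kept genes) and 0 higher (5.76%), and between D0 and iPSCs 8 were lower (21.6%) and 0 higher (18.7%). Junb was at 184 FPKM in D0, 96.1 in D3 and 437 in D9T+. Fosl1 was at 81.3, 71.2 and 94.2 FPKM, Jun at 108, 60.5 and 88.1 FPKM, and Fos at 16.2, 23.3 and 167 FPKM in the same libraries. Fos was also at 150 FPKM in D9T- and was highest in D12S+ (190 FPKM). On day 6, 1 of the 10 was at least 2-fold higher in D6T- than in D6T+ (2.93% of all kept genes) and 4 were lower (9.47%). The higher one was Fosb (26.8 and 8.48 FPKM), and Fosl1 (22.4 and 64.7 FPKM) was among the lower ones. Within 2-fold, Fos was higher in D6T- (141 FPKM) than in D6T+ (74.9 FPKM), as was Jund (72.1 and 63.7 FPKM). Junb (139 and 165 FPKM) and Jun (44.8 and 69.2 FPKM) were lower, also within 2-fold. The mRNA of a factor gives no measure of its activity, and the part of these genes in the levels of the Mmp genes was not tested.

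The marker lists of other cell types gave these summed levels over the 12 libraries. Of 6 mast cell and granulocyte markers 2 were kept, and the sum of all 6 was between 5.47 FPKM in D9T- and 1202 FPKM in D0. The sum in D0 was almost wholly Mcpt8 (1201 FPKM). In mESCs it was almost wholly Kit (33.6 of 33.7 FPKM), as in D16S+ (10.2 of 10.5 FPKM). Cpa3 was listed at 0 throughout, and Mpo was at most 0.0384 FPKM. The 4 endothelial markers summed to between 9.40 and 62.7 FPKM, and the 5 keratinocyte markers, 2 of them kept, to between 0.925 and 42.6 FPKM. The highest endothelial sum was that of mESCs, mostly Pecam1 (61.1 FPKM). Cartilage and bone markers, 4 of 6 kept, summed to between 4.42 and 15.5 FPKM, and the 4 trophoblast markers to between 0.676 and 27.9 FPKM. Their part in the values of the Mmp and Timp genes was not tested.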
